A study of Mus musculus with 374 samples.

Results

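The high mobility group (HMG) genes Hmgb1, Hmgb2, Hmgb3, Hmgn1, Hmgn2 and Hmga1 were followed across 5 sorted populations of mouse blood cells. They were chosen by name, matched to the count table by Ensembl ID, and are 6 of its 19829 mouse genes. Together they held 1879 UMIs (unique molecular identifiers, each standing for 1 captured mRNA molecule), or 0.0838% of all UMIs on mouse genes. Single cells were index sorted into 1 plate and their polyA RNA was counted by CEL-seq2, which captures transcripts at their 3′ end. All cells were from a single female C57BL/6 mouse of 10 to 13 weeks, with no treatment and no transgene named in the labels. From its bone marrow came 95 progenitor/stem cells (Lin- Kit+ Sca1+, here LSK cells), 96 erythroblasts (Ter119+ CD44+ with mid or high forward scatter, FSC-A), 96 granulocytes (Mac1+ Gr1+) and 44 B lymphocytes (B220+ with low FSC-A, here B cells), and from its thymus 43 T lymphocytes (CD3+ with low FSC-A, here T cells).

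HMG proteins are small, abundant chromatin proteins that bind DNA or nucleosomes with little regard for sequence and alter the bending and packing of chromatin. The HMGB proteins carry HMG boxes that insert into the minor groove and bend DNA, and HMGB1 can also leave the cell and act as a danger signal. The HMGN proteins bind nucleosome cores and counter the compaction by linker histone H1, whereas HMGA proteins bind AT-rich DNA through AT hooks and are typical of embryonic and transformed cells.

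Because the cells were from 1 mouse, each population is 1 sample. No p-value or standard error was computed, and the 95% intervals below cover counting error only. Levels are CPM, the summed UMIs of a gene in a population per 1000000 UMIs on mouse genes. Median depth was 7959 UMIs per well in the LSK cells, 6113.5 in the erythroblasts, 3880 in the granulocytes, 3028.5 in the B cells and 4347 in the T cells. Each population's own marker genes summed highest in that population, and the same markers reached 0.985% to 11.8% of that level elsewhere. Of the 374 wells, 367 were nearest in expression to the population on their label. The exception that bears most on the labels is well A8, labelled B cell, with 305 UMIs of the granulocyte genes S100a8 and S100a9, none of Cd79a, Cd79b and Ighm, and a Gr1 fluorescence of 15209. It held 3 of the 87 HMG UMIs of the B cells. Each population filled its own rows of the plate, so plate position and population cannot be told apart.

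In the GENCODE M21 annotation (GRCm38) Hmgb1 (ENSMUSG00000066551) lies at chr5:149046702-149184489 on the minus strand and overlaps Uspl1 on the other strand. Hmgb2 (ENSMUSG00000054717) lies at chr8:57511907-57515999 (plus), Hmgb3 (ENSMUSG00000015217) at chrX:71555918-71560676 (plus), Hmgn1 (ENSMUSG00000040681) at chr16:96120618-96127729 (minus) and Hmgn2 (ENSMUSG00000003038) at chr4:133964738-133968650 (minus). Hmga1 (ENSMUSG00000046711) lies at chr17:27556497-27563674 (plus), where it overlaps AI413582 on the other strand. By total UMIs Hmgb2 ranked 255 among the mouse genes with 838 UMIs, followed by Hmgb1 (319 UMIs, rank 1037), Hmgb3 (272, rank 1287), Hmgn2 (241, rank 1510), Hmgn1 (207, rank 1827) and Hmga1 (2, rank 15453).

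The 5 members other than Hmga1 had at least 1 UMI in every population, and no population was highest for all of them. Hmgb2 and Hmgb3 were highest in the erythroblasts on every scale used. On the CPM scale Hmgn2 was highest in the granulocytes and Hmgn1 in the T cells, although per 1000 UMIs of the ERCC spike-in RNAs both were highest in the LSK cells (1.98 and 2.50 UMIs). Hmgb1 was highest in the LSK cells as CPM and per ERCC UMI, but not once haemoglobin genes were left out of the denominator, where the erythroblasts were above them by 0.12 on the log2 scale (0.61 to 0.76 with TMM, RLE or scran factors). Summed over the 6 genes, the level was 1317 CPM (95% Poisson interval 1231 to 1407) in the erythroblasts, 692 (637 to 751) in the LSK cells, 649 (573 to 733) in the granulocytes, 641 (513 to 790) in the B cells and 369 (290 to 464) in the T cells. The erythroblasts were 1.90-fold above the LSK cells (exact conditional interval 1.71 to 2.12) and the T cells were lowest, at 0.533 of the LSK level (0.413 to 0.680). On the CPM scale the LSK cells, granulocytes and B cells did not differ from each other beyond counting error, but other scalings set them apart, with a log2 ratio of granulocytes over LSK cells from -1.05 per ERCC UMI to 0.84 with RLE factors and of B cells over LSK cells of -1.44 per ERCC UMI.

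**Figure D1:**
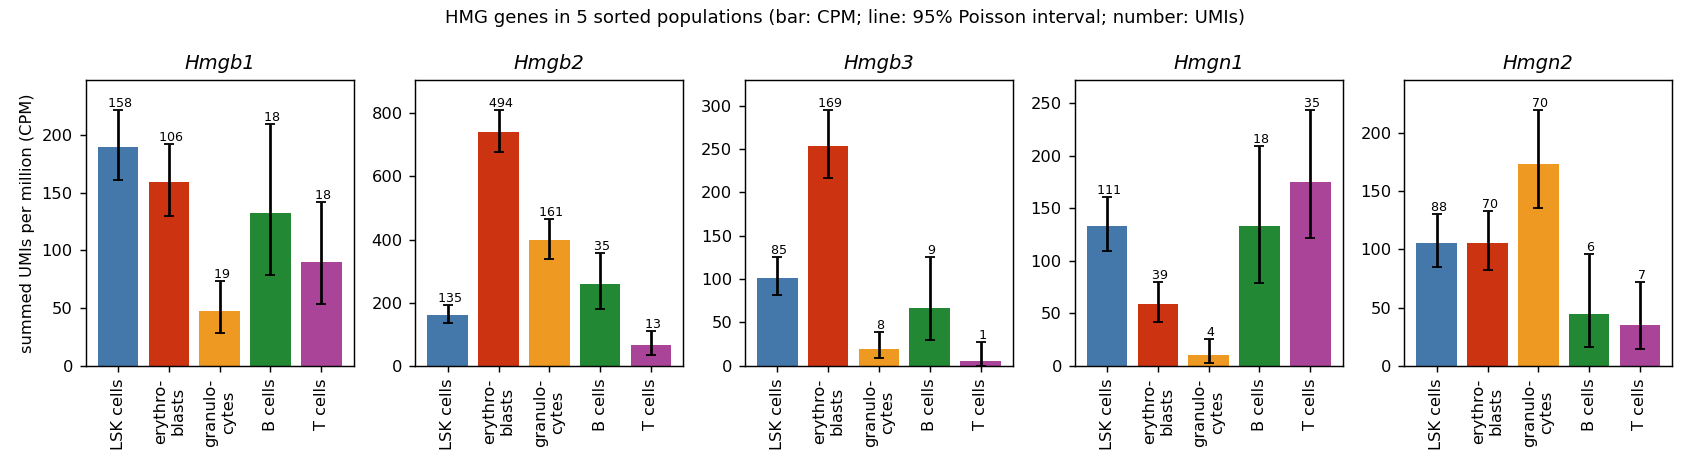
CPM of Hmgb1, Hmgb2, Hmgb3, Hmgn1 and Hmgn2 (1 panel each, own vertical axis from 0) in the 5 populations, with 95% Poisson intervals as lines and the UMIs behind each bar as numbers. The order of the populations differs from gene to gene, with Hmgb2 at up to 741 CPM in the erythroblasts, Hmgn2 at up to 173 in the granulocytes and Hmgn1 at up to 175 in the T cells. Per ERCC UMI the last 2 are highest in the LSK cells.

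Hmgb2, an HMG-box protein whose expression follows proliferation in many tissues, showed the widest range of the HMGB members in absolute level. In the erythroblasts 494 UMIs were counted over 96 wells, with 0 in the lowest, 5 in the median and 19 in the highest well. The granulocytes held 161 UMIs (0, 1 and 20 in the lowest, median and highest well), the LSK cells 135 (0, 1 and 12), the B cells 35 (0, 0 and 8) and the T cells 13 (0, 0 and 4). The wells of all populations overlapped, since each population had wells with no Hmgb2 UMI, but 86 of 96 erythroblasts had 2 or more against 30 of 95 LSK cells, which were sequenced more deeply. On the CPM scale the levels were 741 (677 to 809) in the erythroblasts, 399 (340 to 466) in the granulocytes, 258 (180 to 358) in the B cells, 162 (136 to 191) in the LSK cells and 64.9 (34.5 to 111) in the T cells. Each of the 4 steps in this order was larger than counting error, the smallest being granulocytes over B cells at 1.55-fold (1.07 to 2.30). The B cell level leaned on few wells. Without the well with the most Hmgb2 UMIs it was 212 CPM (140 to 308), an interval that includes the LSK level. Relative to the LSK cells Hmgb2 was 4.58-fold higher in the erythroblasts (3.78 to 5.58) and 2.47-fold higher in the granulocytes (1.95 to 3.12), where the log2 ratio of 1.30 became 0.35 per ERCC UMI. In the B cells it was 1.59-fold higher (1.07 to 2.33), although per 1000 ERCC UMIs it was lower there, with 1.93 against 3.04 Hmgb2 UMIs. Wells with at least 2000 UMIs were then thinned to 2000, leaving 95 LSK cells, 95 erythroblasts, 86 granulocytes, 33 B cells and 42 T cells. Of these erythroblasts 77.9% still held a Hmgb2 UMI (95% binomial interval 68.2 to 85.8). The share was 52.3% in the granulocytes (41.3 to 63.2) and 20.0% in the LSK cells (12.5 to 29.5). Over all wells without thinning these shares were 96.9%, 65.6% and 57.9%. A Hmgb2 UMI remained in 27.3% (B) and 11.9% (T) of the thinned lymphocyte wells.

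Hmgb3, the X-linked HMGB member known from blood-forming progenitors, shared the erythroblast maximum of Hmgb2 but not its granulocyte level. It had 169 UMIs in the erythroblasts (0, 1 and 9 in the lowest, median and highest well), 85 in the LSK cells (0, 1 and 7), 8 in the granulocytes (highest well 2), 9 in the B cells (highest well 3) and 1 in the T cells. Wells with a UMI therefore made up 67.7% of erythroblasts and 51.6% of LSK cells, but 7.29% of granulocytes and 1 of 43 T cells. Thinned to 2000 UMIs, the shares were 32.6% in the erythroblasts (23.4 to 43.0), 16.8% in the LSK cells (9.94 to 25.9) and 3.49% in the granulocytes (0.725 to 9.86). The levels were 253 CPM (217 to 295) in the erythroblasts, 102 (81.3 to 126) in the LSK cells, 66.3 (30.3 to 126) in the B cells, 19.8 (8.56 to 39.1) in the granulocytes and 4.99 (0.126 to 27.8) in the T cells. The erythroblasts were 2.49-fold above the LSK cells (1.91 to 3.27) and 12.8-fold above the granulocytes (6.34 to 30.1). Progenitor/stem cells and B cells did not differ beyond counting error, nor did granulocytes and T cells. Haemoglobin transcripts, made by erythroid cells, stood at 6.55% of the erythroblast level in the granulocytes and 7.52% in the T cells. Hmgb3 stood at 7.82% and 1.97% of its erythroblast level in these populations and Hmgb2 at 53.9% and 8.76%, and the part of carried RNA in the low values was not tested.

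The promoters of Hmgb2 and Hmgb3, the members that were higher in the erythroblasts, are shown beside that of Hmgn1, which was lower there on the CPM scale. Each line gives the 250 bases before the RefSeq start (GRCm38.p6), read 5′ to 3′ on the gene's strand, with CCAAT boxes in capitals (CCAAT, or ATTGG where it lies on the other strand).
Hmgb2 (chr8:57511593-57511842, plus strand): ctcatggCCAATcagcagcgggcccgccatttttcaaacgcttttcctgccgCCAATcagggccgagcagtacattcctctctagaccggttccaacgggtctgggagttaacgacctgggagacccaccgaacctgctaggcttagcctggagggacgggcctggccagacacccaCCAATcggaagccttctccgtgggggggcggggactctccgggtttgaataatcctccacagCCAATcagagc
Hmgb3 (chrX:71555667-71555916, plus strand): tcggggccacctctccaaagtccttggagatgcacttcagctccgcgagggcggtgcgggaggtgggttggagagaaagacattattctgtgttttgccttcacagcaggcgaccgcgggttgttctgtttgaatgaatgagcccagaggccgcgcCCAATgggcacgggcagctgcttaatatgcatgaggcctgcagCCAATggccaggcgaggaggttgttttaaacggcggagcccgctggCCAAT
Hmgn1 (chr16:96127726-96127975, minus strand): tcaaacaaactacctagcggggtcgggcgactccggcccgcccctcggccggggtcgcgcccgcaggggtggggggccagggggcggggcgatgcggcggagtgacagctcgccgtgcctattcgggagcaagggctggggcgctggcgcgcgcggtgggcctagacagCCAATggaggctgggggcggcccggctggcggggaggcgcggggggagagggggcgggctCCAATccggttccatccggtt
The CCAAT pentamer occurred 4 times in the Hmgb2 window, 3 times in the Hmgb3 window and 2 times in the Hmgn1 window, always on the gene's strand. In Hmgb2 the first base of these matches lay 243, 198, 73 and 11 bases before the start. Of 32817 such windows of mouse genes, 33.8% held at least 1 match, 10.1% at least 2, 2.79% at least 3 and 0.835% at least 4. The upstream window of Hmgb1 (chr5:149053058-149053307, minus strand) also held 3 matches, while the windows of Hmgn2, Hmga1 and a second Hmgb1 start held none. These letter matches are a description of the windows and no measure of binding.

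Hmgb1, the most widely expressed member of the family, had the flattest profile. It had 158 UMIs in the LSK cells (0, 1 and 9 in the lowest, median and highest well), 106 in the erythroblasts (0, 1 and 5), 19 in the granulocytes (highest well 2), 18 in the B cells (highest well 3) and 18 in the T cells (highest well 2). This corresponded to 189 CPM (161 to 221) in the LSK cells, 159 (130 to 192) in the erythroblasts, 133 (78.6 to 209) in the B cells, 89.8 (53.2 to 142) in the T cells and 47.1 (28.3 to 73.5) in the granulocytes. No neighbouring step in this order exceeded counting error. Across the order, the granulocytes were at 0.249 of the LSK level (0.146 to 0.402) and the T cells at 0.475 (0.274 to 0.775). Thinned to 2000 UMIs, 23.2% of LSK cells, 27.4% of erythroblasts, 27.3% of B cells and 21.4% of T cells held a Hmgb1 UMI. Of the thinned granulocytes 4.65% did. The unthinned shares, over all wells, were 71.6%, 58.3%, 31.8%, 37.2% and 15.6%. With the UMIs of near-identical gene copies added, the granulocytes were at 0.714 of the LSK level (0.588 to 0.862), as set out below. Of the 129 copy UMIs of the granulocytes, 71 lay on 1 locus.

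Hmgn1, a nucleosome-binding member linked to open chromatin, came in nearly the reverse order of Hmgb2. Its 35 UMIs in the 43 T cells (0, 0 and 4 in the lowest, median and highest well), 111 in the LSK cells (0, 1 and 6) and 18 in the B cells (0, 0 and 4) contrasted with 39 in the 96 erythroblasts (0, 0 and 5) and 4 in the 96 granulocytes, each in a different well. The levels were 175 CPM (122 to 243) in the T cells, 133 (109 to 160) in the LSK cells, 133 (78.6 to 209) in the B cells, 58.5 (41.6 to 80.0) in the erythroblasts and only 9.91 (2.70 to 25.4) in the granulocytes. The upper 3 populations did not differ beyond counting error, whereas B cells were 2.27-fold above erythroblasts (1.22 to 4.06) and erythroblasts 5.90-fold above granulocytes (2.13 to 22.7). Relative to the LSK cells Hmgn1 was at 0.440 in the erythroblasts (0.297 to 0.639) and 0.0746 in the granulocytes (0.0200 to 0.196). The erythroblast value is a log2 ratio of -1.18 and depends on the scaling, being -0.32 with TMM, -0.22 with RLE and -0.17 with scran factors, all within 2-fold. Thinned wells with a Hmgn1 UMI made up 33.3% of T cells (19.6 to 49.5), 21.1% of LSK cells (13.4 to 30.6), 27.3% of B cells, 8.42% of erythroblasts (3.71 to 15.9) and 1.16% of granulocytes. Without thinning the shares, over all wells, were 48.8%, 55.8%, 29.5%, 21.9% and 4.17%.

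Hmgn2, the close relative of Hmgn1, differed from it in the granulocytes. It had 70 UMIs in the granulocytes (0, 0 and 13 in the lowest, median and highest well), 88 in the LSK cells (0, 1 and 7), 70 in the erythroblasts (0, 0 and 4), 6 in the B cells (highest well 3) and 7 in the T cells (highest well 2). On the CPM scale this was 173 (135 to 219) in the granulocytes, 105 in both the LSK cells (84.5 to 130) and the erythroblasts (81.8 to 133), 44.2 (16.2 to 96.2) in the B cells and 34.9 (14.0 to 72.0) in the T cells. The granulocytes were 1.65-fold above the LSK cells (1.18 to 2.28). Without its highest well the B cell level was 22.9 CPM (4.72 to 66.9). The highest granulocyte well, also the highest for Hmgb2, held 18.6% of the Hmgn2 UMIs of that population. It had 22425 UMIs in all, against a median of 3880. Without it the level was 150 CPM (113 to 194). Per 1000 ERCC UMIs the granulocytes were lower than the LSK cells, with 1.68 against 1.98. Both lymphocyte groups lay below the LSK cells, at 0.419 (0.150 to 0.949) for B and 0.331 (0.129 to 0.712) for T, and did not differ from each other beyond counting error. The same share of thinned wells, 22.1%, held a Hmgn2 UMI in the erythroblasts and the granulocytes, against 15.8% of LSK cells, and 49.0%, 35.4% and 52.6% without thinning.

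Hmga1, the AT-hook member, was barely seen. It had 1 UMI in the LSK cells and 1 in the B cells, and none in the erythroblasts, granulocytes and T cells, where 0 UMIs, taken as a limit of 3 counts, allow up to 4.50, 7.43 and 15.0 CPM. Its near-identical copy Hmga1b on chromosome 11 (99.8% identical over 1602 bases) held 6 UMIs, 4 in the LSK cells and 2 in the B cells. How reads were assigned between both loci was not tested. No difference between populations was detectable from these counts.

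**Figure D2:**
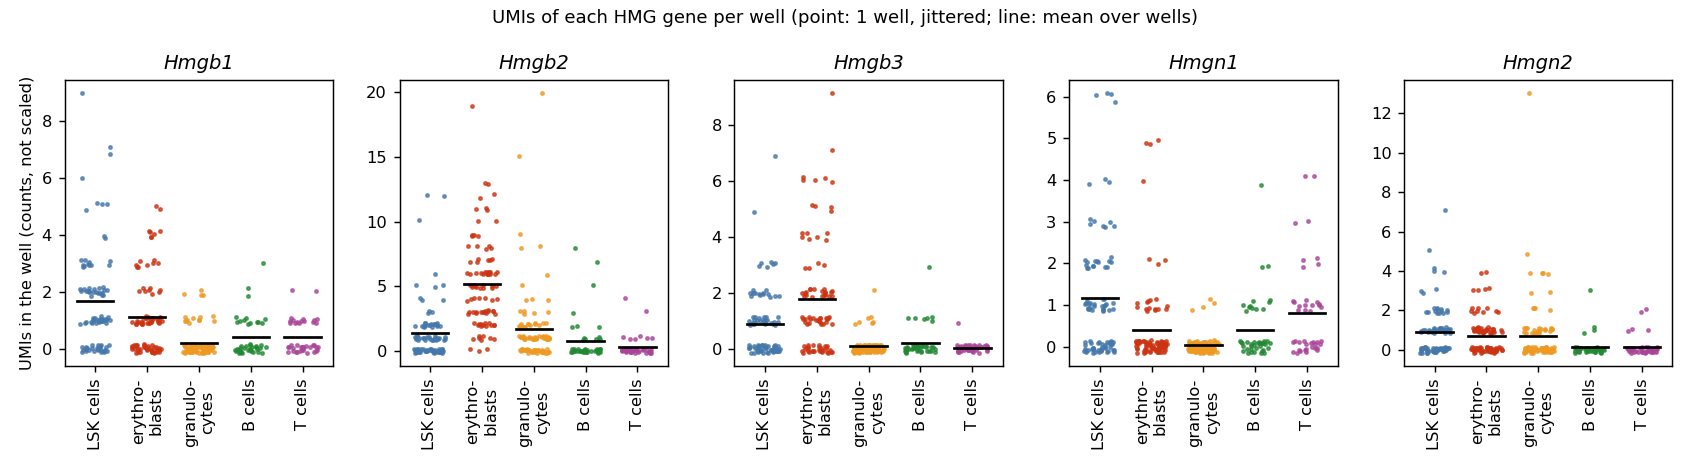
UMIs of Hmgb1, Hmgb2, Hmgb3, Hmgn1 and Hmgn2 in each well, unscaled and jittered, with 1 point per well and a line at the mean over the wells of each population. In the erythroblasts most wells hold several Hmgb2 UMIs (median 5, highest 19). A single granulocyte well, with 22425 UMIs in all, holds 20 of Hmgb2 and 13 of Hmgn2 above a median of 1 and 0.

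The make-up of the HMG transcripts differed between populations. Each UMI stands for 1 tagged 3′ end, so shares were not scaled by gene length. Hmgb2 made up 56.3% of the UMIs of the 6 genes in the erythroblasts (52.9 to 59.6) and 61.5% in the granulocytes (55.3 to 67.4), but 40.2% in the B cells (29.9 to 51.3), 23.4% in the LSK cells (20.0 to 27.0) and 17.6% in the T cells (9.70 to 28.2). Hmgn1 made up 47.3% in the T cells (35.6 to 59.3), 19.2% in the LSK cells (16.1 to 22.7) and 1.53% in the granulocytes (0.418 to 3.86). Hmgn2 took 26.7% in the granulocytes (21.5 to 32.5), and Hmgb3 19.2% in the erythroblasts (16.7 to 22.0). In the LSK cells the UMIs were spread most evenly, from 27.3% for Hmgb1 to 14.7% for Hmgb3, with Hmga1 at 0.173%. These shares leave out the near-identical gene copies set out below. With copies of at least 95% identity added, Hmgb1 had the most UMIs in the LSK cells, 429 against 187 for Hmgb2. It also led in the T cells (82, against 37 for Hmgn1) and the B cells (82, against 45 for Hmgb2). Hmgb2 still led in the erythroblasts (651, against 315 for Hmgb1) and the granulocytes (213, against 148).

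The members were then set beside all genes that held 50 UMIs or more in the pair of populations, using a fold of 2 on the CPM scale as the rule of size. In the erythroblasts over the LSK cells Hmgb2 and Hmgb3 were past it upwards (2 of 5 members with enough UMIs, against 14.8% of 4792 genes) and Hmgn1 downwards (1 of 5, against 40.9%). In the granulocytes Hmgb2 was higher (1 of 5, against 13.7% of 4440 genes) and Hmgb1, Hmgb3 and Hmgn1 were lower (3 of 5, against 42.7%). In the B cells no member was higher (6.56% of 3793 genes were) and only Hmgn2 was lower (1 of 5, against 27.9%). In the T cells no member was higher (8.35% of 4060 genes were) and 4 of 5 were lower, all but Hmgn1, against 17.8% of all genes. Between T and B cells only Hmgn1 had 50 UMIs, and its ratio of 1.32 (0.726 to 2.47) was within the fold, which 18.2% of 1103 genes passed upwards and 9.34% downwards. Hmgb2, with fewer UMIs, was at 0.252 of the B cell level in the T cells (0.122 to 0.488).

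The median gene was itself below the LSK cells, by -0.73 on the log2 scale in the erythroblasts, -0.76 in the granulocytes, -0.44 in the B cells and -0.22 in the T cells. A scaling with TMM, RLE or scran factors moves this median, upwards by 0.86 to 1.01 for erythroblasts, 0.77 to 0.93 for granulocytes, 0.11 to 0.33 in the B cells and 0.02 to 0.18 in the T cells. Relative to the median gene, where the scaling cancels, Hmgb2 was at +2.92 and Hmgb3 at +2.04 in the erythroblasts, with Hmgn2 at +0.72, Hmgb1 at +0.48 and Hmgn1 at -0.46. In the granulocytes Hmgb2 was at +2.06 and Hmgn2 at +1.48, while Hmgb1, Hmgb3 and Hmgn1 were at -1.25, -1.60 and -2.99. In the T cells Hmgn1 was at +0.61 and the other 4 lay between -0.85 and -2.55, the last being Hmgb3 with its 1 UMI raised to the floor of 3. In the B cells Hmgb2 was at +1.11, Hmgn1 at +0.43, Hmgb1 at -0.07, Hmgb3 at -0.18 and Hmgn2 at -0.82.

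**Figure D3:**
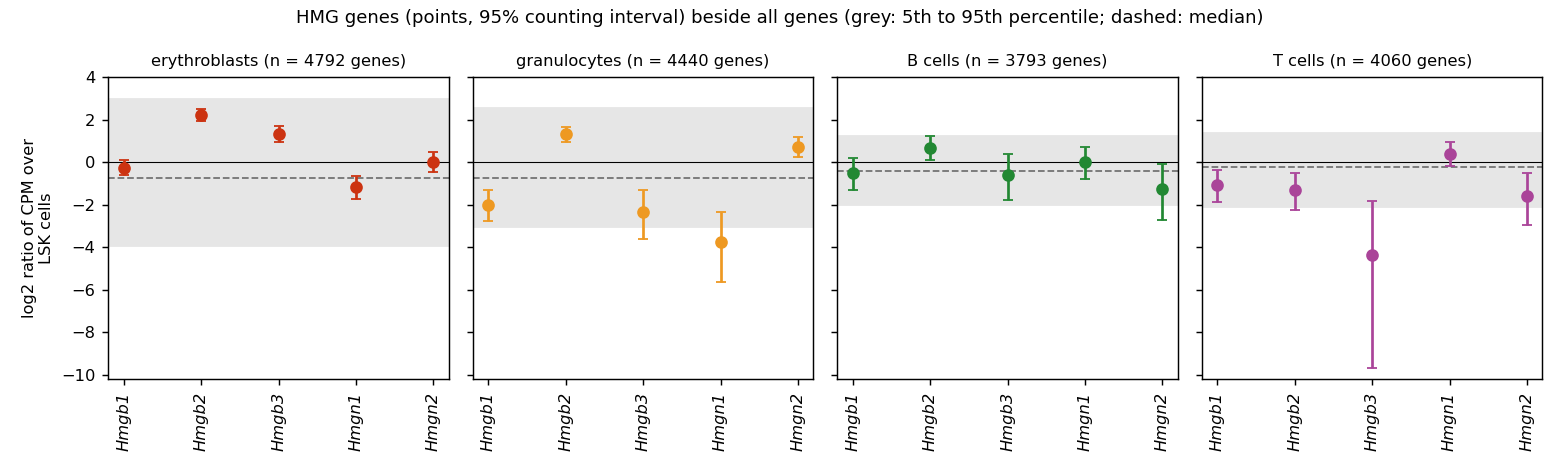
Log2 ratio of the CPM of each HMG gene over the LSK cells (points, with 95% counting intervals), with the 5th to 95th percentile of all tested genes in grey, their median dashed and a line at 0. Hmgn1 in the granulocytes and Hmgb3 in the T cells, the latter from 1 UMI, lie below the grey band, and no member lies above it. For the band and median, sums under 3 UMIs were set to 3, but not for the points. With that floor Hmgb3 in the T cells would lie at -2.77.

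Reads of HMG genes can be assigned to other loci, because the mouse genome holds many retrotransposed copies of them. Transcripts of other genes with at least 95% identity to a member over at least 200 bases and 80% of their own length were searched in the GENCODE M21 annotation (GRCm38). Hmgb1 had 52 such copies, of which 45 are in the count table, Hmgn2 had 12 (7 in the table), Hmgb2 had 5 (4), Hmgn1 had 4 (2), and Hmgb3 and Hmga1 had 1 each. The closest copy of Hmgb2, the processed pseudogene Gm4739 (chr10:26107789-26108421, plus strand), matches the 633 bases of the Hmgb2 coding sequence with 2 differences, C555T and C606A (the Hmgb2 base first, position from 1 at the start codon, then the base of Gm4739). A stretch of 60 bases shows how little separates them, with the differing base in capitals.
Hmgb2, coding bases 526 to 585: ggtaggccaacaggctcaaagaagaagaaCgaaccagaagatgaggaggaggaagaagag
Gm4739, bases 526 to 585: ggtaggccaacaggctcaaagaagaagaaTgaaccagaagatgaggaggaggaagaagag
The copy spans only the coding bases, after which the longest annotated Hmgb2 transcript runs on for 1872 bases. Gm4739 held 140 UMIs in the erythroblasts, 46 in the granulocytes, 46 in the LSK cells, 9 in the B cells and 7 in the T cells. Like Hmgb2 it was highest in the erythroblasts, and the copies together were 3.78-fold above the LSK cells there (2.75 to 5.28). With its copies added, Hmgb2 was 4.36-fold higher in the erythroblasts (3.70 to 5.16) and 2.36-fold higher in the granulocytes (1.93 to 2.88). The copies held 22.2% to 38.1% of the combined Hmgb2 UMIs and 25.0% to 36.2% of the combined Hmgn2 UMIs. With copies added, Hmgn2 was 1.59-fold above the LSK cells in the granulocytes (1.22 to 2.06), close to its value alone. Hmgb3 has the copy Gm6104 (chr1:4880049-4880651, minus strand, 99.5% identical over 603 bases), which held 22 UMIs in the LSK cells, 15 in the erythroblasts, 1 in the B cells and none elsewhere and overlaps Tcea1 on the other strand. With it, Hmgb3 was 2.15-fold higher in the erythroblasts than in the LSK cells (1.69 to 2.76). Hmgn1 was nearly free of them, with at most 2 copy UMIs in any population.

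Hmgb1 was the member most affected. Its copies held more UMIs than Hmgb1 itself in every population, 271 against 158 in the LSK cells, 209 against 106 in the erythroblasts, 129 against 19 in the granulocytes, and 64 against 18 in both the B and the T cells. With the copies added, the granulocytes rose from 0.249 to 0.714 of the LSK level (0.588 to 0.862) and the T cells from 0.475 to 0.796 (0.621 to 1.01), so neither was past 2-fold, and the B cells had the highest sum, at 1.17 of the LSK level (0.916 to 1.49). Of the 129 copy UMIs of the granulocytes 71 lay on a single locus, Hmgb1-ps8 (chr10:22262742-22263367, minus strand, 96.6% identical over 593 bases), which was singled out after its values were seen. These UMIs came from 42 of 96 granulocytes (176 CPM, 137 to 222), and Hmgb1-ps8 had 20 in 15 of 44 B cells (147 CPM, 90.0 to 227), 18 in 14 of 43 T cells (89.8 CPM, 53.2 to 142), 9 in the LSK cells (10.8 CPM, 4.93 to 20.5) and 2 in the erythroblasts (3.00 CPM, 0.363 to 10.8). It was thus highest in the population where Hmgb1 was lowest. Whether its UMIs are reads of Hmgb1 or of the locus itself was not tested. The locus overlaps the antisense gene Gm26740 on its own strand and Raet1e and H60b on the other, and these held 3, 0 and 0 UMIs in all wells. The other 44 copies were at 0.458 of the LSK level in the granulocytes (0.338 to 0.611) and 0.989 in the erythroblasts (0.820 to 1.19). Whether the counting used strand is not given in the sources used here, so reads of Hmgb1 and of Uspl1, which overlaps it on the opposite strand and had 88 UMIs, may not be told apart.

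**Figure D4:**
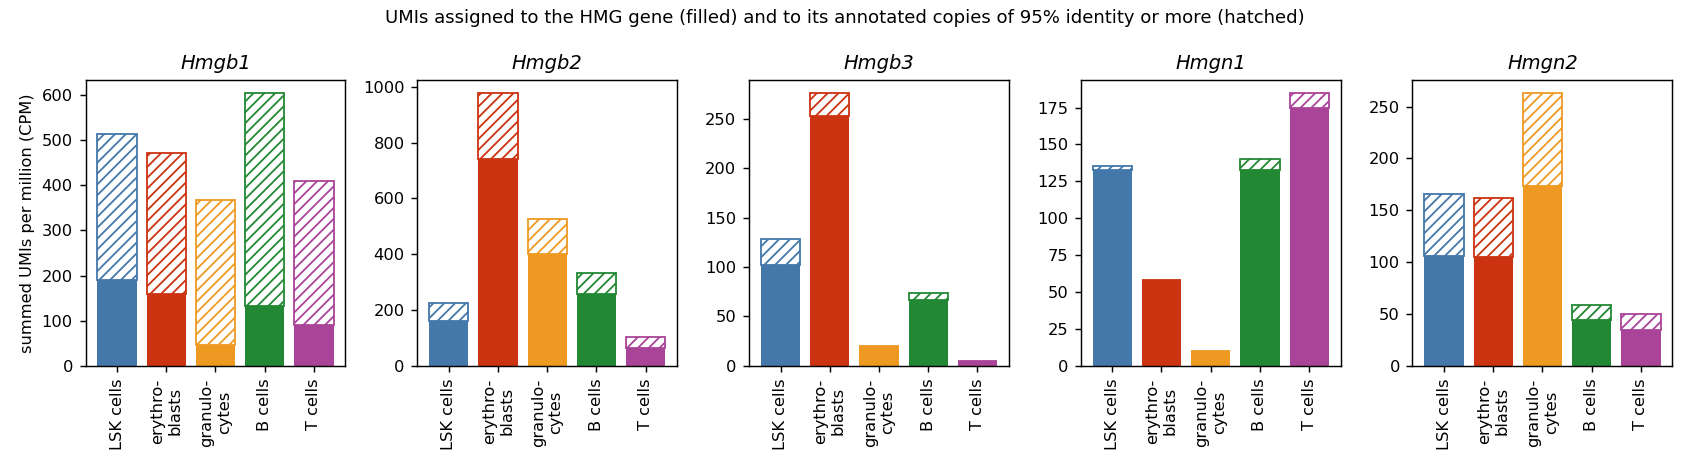
CPM assigned to each HMG gene (filled) and to its annotated copies of 95% identity or more (hatched, stacked) in the 5 populations, with a separate vertical axis for each gene. For Hmgb1 copies make up 63.2% of the stack in the LSK cells and 87.2% in the granulocytes, while for Hmgn1 they stay at or below 5.41%.

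The index values recorded at the sort allowed the members to be compared within a population. In wells with at least 1000 UMIs, CPM was summed over the wells above and over the wells at or below the median of the FSC-A value and of 1 or 2 antibodies per population (c-Kit and Sca-1, CD44, Gr1, B220 or CD3). Wells were not split by Ter119 or Mac1. Of 41 such comparisons of a member, 9 gave an interval that excludes 1, and no adjustment was made over the 41. Among the LSK cells Hmgb3 was the only member whose intervals excluded 1. It was at 142 CPM (59 UMIs) in the 47 wells with more c-Kit and 61.9 (26 UMIs) in the 48 with less, a ratio of 2.30 (1.43 to 3.80). It was lower in the wells with more Sca-1, at 76.2 against 125 CPM and a ratio of 0.611 (0.378 to 0.970), and in those with more FSC-A, at 73.1 against 132 CPM and a ratio of 0.555 (0.345 to 0.880). Across the single wells the Spearman correlation of the Hmgb3 share was 0.33 with c-Kit and -0.29 with Sca-1 but -0.08 with FSC-A. The Sca-1 difference did not hold without the well with the most Hmgb3 UMIs, at 0.680 (0.416 to 1.10). S phase transcripts were 1.92-fold higher in the wells with more FSC-A (1.74 to 2.13) and 1.69-fold in those with more c-Kit (1.53 to 1.86), so they did not go one way with Hmgb3.

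Among the erythroblasts, CD44 and FSC-A fall as cells mature. Hmgn1 was at 81.6 CPM (33 UMIs) in the 47 wells with more CD44 and 22.9 (6 UMIs) in the 48 with less, a ratio of 3.56 (1.47 to 10.4). Hmgb3 was 1.48-fold higher in the wells with more FSC-A (1.07 to 2.06) and 1.38-fold in those with more CD44 (0.990 to 1.94). Hmgb2 differed little, with a ratio of 0.936 by CD44 (0.780 to 1.13) and 1.07 by FSC-A (0.890 to 1.28). The wells with more CD44 were sequenced more deeply (median 7824 against 5334 UMIs), and S phase transcripts were 1.56-fold higher in them (1.44 to 1.68) while G2/M transcripts were lower, at 0.772 (0.743 to 0.802).

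Among the granulocytes Hmgb2 was at 267 CPM in the 47 wells with more Gr1 and 490 in the 47 with less, a ratio of 0.546 (0.377 to 0.779). Hmgb1 went the same way, from 3 UMIs against 16, at 0.272 (0.0509 to 0.952), which did not hold without the well with the most Hmgb1 UMIs, at 0.302 (0.0557 to 1.08). Summed G2/M transcripts were also lower in the wells with more Gr1, at 0.370 (0.305 to 0.445), although across the 94 wells their share had a Spearman correlation of -0.05 with Gr1, against -0.18 for Hmgb2 and -0.36 for Hmgb1. Hmgn2 was 2.15-fold higher in the wells with more FSC-A (1.25 to 3.86), and 1.78-fold without the highest well (1.00 to 3.28), and its share had a Spearman correlation of 0.23 with FSC-A. S phase and G2/M transcripts together were 1.89-fold higher as a sum in these wells (1.63 to 2.18), while across wells their share went the other way, with a Spearman correlation of -0.16. Among the B cells Hmgb2 was at 80.4 CPM (5 UMIs) in the 21 wells with more B220 and 410 (30 UMIs) in the 22 with less, a ratio of 0.196 (0.0594 to 0.510). Without A8, B2 and the wells nearest to another population it was 0.206 (0.0620 to 0.540). S phase and G2/M transcripts together were at 0.333 in the wells with more B220 (0.266 to 0.413). In the T cells only Hmgb1 and Hmgn1 had a UMI in enough wells to be compared (16 and 21 wells, against 8 for Hmgb2), and no interval excluded 1.

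**Figure D5:**
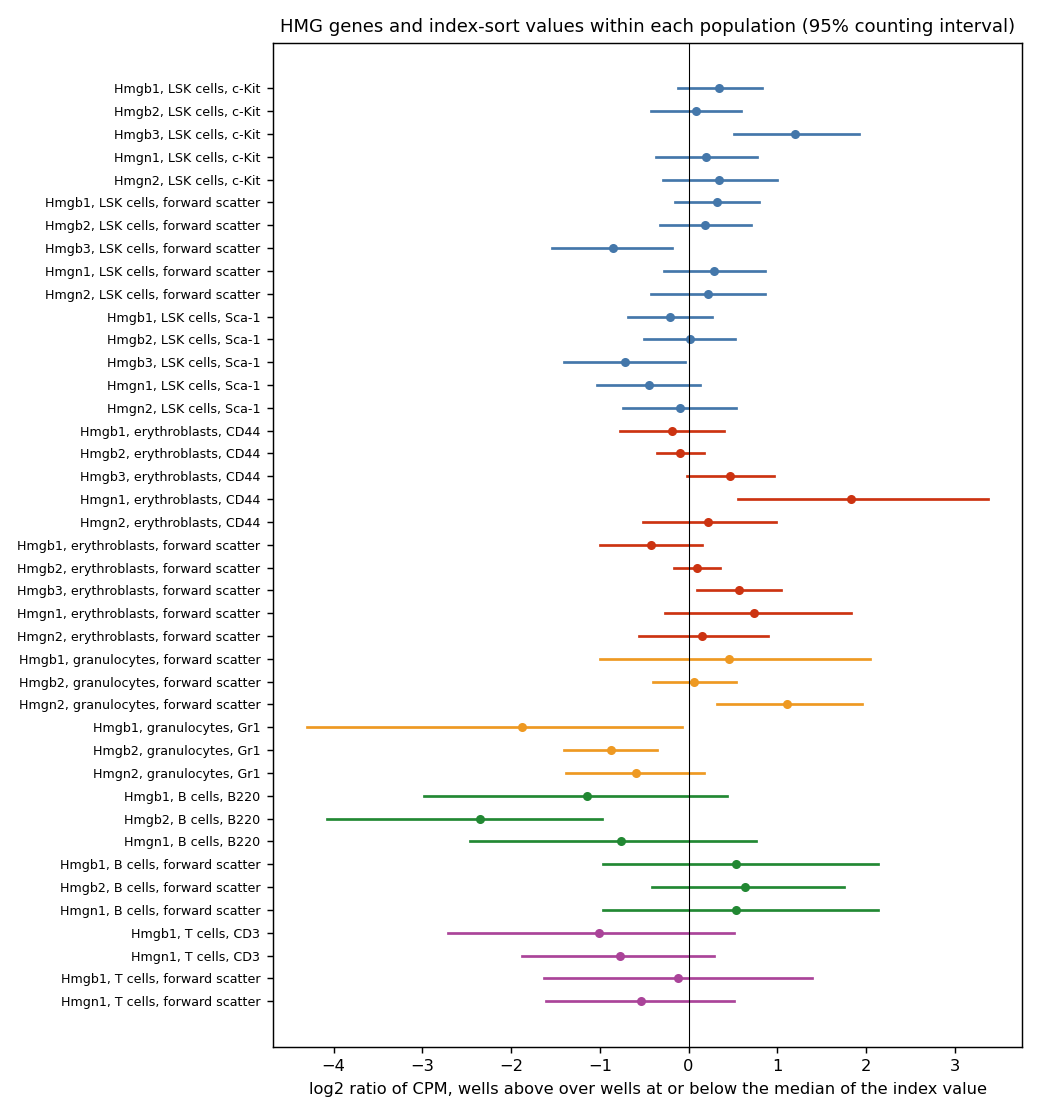
Log2 ratio of CPM in the wells above over the wells at or below the median of an index value, for each HMG gene, population and index value compared (41 lines, points for ratios and lines for 95% counting intervals, coloured by population, vertical line at 0). Lines that do not cross 0 include Hmgb3 by c-Kit in the LSK cells, Hmgn1 by CD44 in the erythroblasts and Hmgb2 by B220 in the B cells.

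Proliferation genes moved with the HMGB members in part. Of 18 G2/M genes with enough UMIs, 18 were at least 2-fold higher in erythroblasts than in LSK cells (14.8% of all genes). Their median log2 ratio was 3.68 against -0.73 for all genes. The proliferation marker Mki67 was at 5061 against 398 CPM and Smc4 of the condensin complex at 1887 against 405. Topoisomerase Top2a was at 2176 against 374. Of 15 S phase genes 11 were higher (14.8% of all genes were). Among them were Pcna, the sliding clamp of DNA polymerase, at 754 against 218 CPM and the ribonucleotide reductase subunit Rrm1 at 711 against 139. The helicase subunit Mcm6 was at 438 against 410. In the granulocytes, where Hmgb2 was higher as well, 10 of 12 S phase genes were lower (42.7% of all genes were) and 1 of 11 G2/M genes was higher (13.7% of all genes were). Across single wells with at least 1000 UMIs the Spearman correlation of the Hmgb2 share with the share of S phase and G2/M genes was 0.46 over 95 LSK cells, 0.40 over 43 B cells, 0.30 over 94 granulocytes and 0.06 over 95 erythroblasts. Both shares come from the same libraries and depth. Thinned to 2000 UMIs, the value was 0.21 in the LSK cells and 0.16 over the 86 granulocytes deep enough. For Hmgb1, Hmgb3, Hmgn1 and Hmgn2 the correlations lay between -0.20 and 0.22 in the populations where they were computed. These values pool both lists, which differed in the erythroblasts. There the correlations with S phase and with G2/M genes were 0.34 and -0.01 for Hmgb3 and 0.29 and -0.31 for Hmgn1. They were 0.25 and -0.05 for Hmgb1, 0.20 and -0.17 for Hmgn2, and -0.20 and 0.19 for Hmgb2. Thinned, the S phase values were 0.08 for Hmgb3, 0.10 for Hmgb1, 3.4e-05 for Hmgn2 and -0.22 for Hmgb2.

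Of the linker histones, which HMGN and HMGB proteins displace from nucleosomes, 4 of 5 were higher in the erythroblasts (14.8% of all genes were) and 1 was lower. The S phase variant Hist1h1e was at 208 CPM there against 28.7 in the LSK cells, Hist1h1b at 195 against 16.8 and Hist1h1c at 123 against 31.1, whereas H1f0, the replacement variant, was at 25.5 against 103. In the T cells all 7 together had 3 UMIs, or 15.0 CPM (3.09 to 43.7). Because polyA RNA was counted, any linker histone transcripts without a polyA tail are missing from these levels. Of 11 genes of the SET complex and histone chaperones, 10 were lower in the granulocytes (42.7% of all genes were) and 6 in the erythroblasts (40.9% of all genes were), where Anp32b was the one higher (1047 against 452 CPM) and the nucleolar chaperone Npm1 was at 163 against 1024 CPM and Set at 102 against 503. Of 9 other HMG-box genes with enough UMIs, 7 were lower in the granulocytes and 3 in the erythroblasts and none was higher in either, with a median log2 ratio of -1.32 and -0.74 against -0.76 and -0.73 for all genes. Ssrp1, a subunit of the FACT chaperone, was at 69.4 CPM in the granulocytes and 329 in the LSK cells, the chromatin remodeller subunit Pbrm1 at 141 against 323 and the repressor Cic at 66.9 against 133. Among the remaining HMG family genes Hmgn5 was the one with enough UMIs, at 129 CPM (106 to 156) in the LSK cells, 103 (56.4 to 173) in the B cells, 60.0 (42.9 to 81.7) in the erythroblasts, 37.2 (20.8 to 61.3) in the granulocytes and 29.9 (11.0 to 65.2) in the T cells. Hmgn3 had 24 UMIs in all, 17 of them in the LSK cells.

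HMGB1 and HMGB2 assist the RAG recombinase in joining antigen receptor genes. Of the recombination genes, Rag1 had 89 of its 99 UMIs in the B cells (655 CPM, 526 to 806), Xrcc6, the Ku70 end-binding protein, was at 287 CPM there against 116 in the LSK cells but at 2.15 against 2.18 UMIs per 1000 ERCC UMIs, and Dntt, which adds bases at the joins, was at 389 CPM in the LSK cells against 36.8. Prkdc, the DNA-dependent protein kinase, was at 81.0 CPM in the B cells, 160 in the T cells and 133 in the LSK cells. Of 4 recombination genes with enough UMIs, 2 were higher in the B cells than the LSK cells as CPM (6.56% of all genes). There 1 was lower (27.9% of all genes). For the T cells the 4 genes with enough UMIs held Xrcc5 in place of Rag1. None of them was higher (8.35% of all genes) and 2 were lower (17.8% of all genes). Of 8 reported receptors for HMGB1 outside the cell, Ager had 11 UMIs, Tlr2 had 26 and Tlr4 had 2 in all wells. Cd24a, a surface protein of immature blood cells, was at 279 CPM in the erythroblasts, 140 in the B cells and 47.1 in the granulocytes, against 21.6 in the LSK cells and 25.0 in the T cells. Cxcr4, the receptor for CXCL12, which can bind HMGB1, was at 275 CPM in the granulocytes, 272 in the B cells, 181 in the erythroblasts, 83.9 in the LSK cells and 44.9 in the T cells.

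For each member the genes with the most similar profile over the 5 populations were taken by the root mean square difference of centred log2(CPM + 10) among 3905 genes with at least 100 UMIs. Evi5 (0.26), the linker histone Hist1h1c (0.28) and Carhsp1 (0.37) came nearest to Hmgb2. Slc43a3 (0.36), the recombination helicase Rad54l (0.42) and Rfc4 (0.43), a subunit of the clamp loader, came nearest to Hmgb3. The spliceosome gene Snrpd2 (0.06), the DNA polymerase delta subunit Pold3 (0.09) and Gm11808 (0.10) came nearest to Hmgb1. Usp24 (0.26), Rpl12-ps1 (0.26) and Mbd3 (0.28) came nearest to Hmgn1. The gene nearest to Hmgn2 was its own copy Gm10282 (0.11), which matches it at 99.3% over 1151 bases, before Txn-ps1 (0.15) and Tmx4 (0.17). For Hmga1, with 2 UMIs, the nearest genes Nedd8, Aup1 and Cpsf7 are no more than genes with flat profiles. With a pseudocount of 1 CPM none of the 3 genes nearest to Hmgb2 stayed among the nearest 3, and all 3 of Hmgn2 did. With the Pearson correlation of the log2 values as the measure, 0 of 3 stayed for Hmgb3, 1 for Hmgb1, 1 for Hmgn1, 2 for Hmgb2 and 2 for Hmgn2.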

How the data were processed

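Single cells of 5 populations of 1 mouse were profiled with CEL-seq2. The authors deposited UMI counts per gene and well, whole numbers that were not normalized, made with scPipe by aligning reads, assigning them to exons, demultiplexing by designed barcodes and removing UMI duplicates. Aligner version, genome build, annotation and strand setting were not given in the sources used here. For read 1, 2 layouts that cannot both hold stand in the labels. The counts were used as deposited for 374 labelled wells, and 9 columns that matched no sample were not used. Replicate numbers were given in accession order and pair nothing.

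Ensembl IDs were matched to GENCODE M21 symbols (19755 of 19829). Counts were summed per population and scaled to UMIs on mouse genes. Total depth was 135808 to 834812 UMIs per population. Intervals are 95% exact Poisson (sums), exact binomial (shares) and exact conditional binomial (ratios), all for counting error only. The Poisson and ratio intervals were checked on sums simulated with counting error alone, which hold no spread between wells. With 1 sample per population no test was run. A gene was counted past a fold of 2 among genes that held 50 UMIs or more in the 2 populations. Sums under 3 UMIs were set to 3 for this count and for the values relative to all genes. Shares of wells were also computed after thinning to 2000 UMIs, with wells below that depth left out. Copies were found with BLAST 2.17.0 in the GENCODE transcripts, and their thresholds were set after the data were seen. Promoter sequences are from RefSeq (GRCm38.p6), where each of the 6 members had an entry. The scaling alternatives used edgeR 4.0.16 (TMM and RLE) and scran 1.30.0 under R 4.3.3, and the rest Python 3.11.15 with numpy 2.4.6, pandas 2.3.3, scipy 1.17.1 and matplotlib 3.10.9.

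The members and all gene lists were chosen with earlier results of these data known. The genes named are the 6 members, the 3 genes of each list with the most UMIs, the 3 genes nearest in profile to each member and the copies with a UMI. H1f0, Hmgn3, Rag1, Ager and Tlr4 are named beside them as single members of their lists. Mcm7, Nusap1, Tox4, Hmga2 and Hmgb4 were on the lists and are not analysed here. The alternatives changed the denominator, the normalization, the wells used, the filter, the fold and the treatment of copies.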

Additional observations from a re-analysis of the deposited data

How the results depend on the processing

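No paired analysis was possible because each population is 1 sample of the same mouse and the replicate numbers only name wells. Of 300 values of the ratio of 1 gene under an alternative, 259 stayed within the counting interval of the reported value, 39 moved outside it without a reversal and 2 reversed, meaning that the reported interval excluded a ratio of 1 and the sign then changed. Both reversals came per ERCC UMI, where the log2 ratio of Hmgn2 in the granulocytes over the LSK cells was -0.24 in place of 0.72 and that of Hmgb2 in the B cells was -0.65 in place of 0.67. Signs also changed for ratios whose reported interval included 1, the ones outside that interval being Hmgb1 in the erythroblasts (-0.25, but 0.12 to 0.76 with haemoglobin genes left out, TMM, RLE or scran factors), Hmgn2 in the erythroblasts (-0.01, but 0.86 to 1.01 with TMM, RLE or scran factors), Hmgb1 in the B cells (-0.51, but 0.23 with copies of 95% identity and 0.29 with copies of 90%) and Hmgn1 in the T cells (0.39, but -0.50 per ERCC UMI). The cause was not tested.

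The summed log2 ratio of the 6 genes in the erythroblasts over the LSK cells was 0.93. It was 1.30 with haemoglobin genes out of the denominator, 1.79 with TMM, 1.90 with RLE, 1.94 with scran factors, 0.73 with copies of 95% identity added and 0.66 with copies of 90%, an alternative chosen after seeing the data. In the granulocytes it was -0.09, but 0.68 with TMM, 0.84 with RLE, 0.73 with scran factors and -1.05 per ERCC UMI. In the B cells it was -0.11, but 0.22 with RLE and -1.44 per ERCC UMI, and in the T cells -0.91, but -1.80 per ERCC UMI.

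Of the counts of members past the fold, those higher in the erythroblasts went from 2 to 1 with copies of 90% identity (Hmgb3 fell to 0.94 on the log2 scale), and those lower from 1 to 0 with haemoglobin genes left out, TMM, RLE or scran factors. Those higher in the granulocytes went from 1 to 2 with TMM, RLE, scran factors or a fold of 1.5, and to 0 per ERCC UMI. In the B cells the number higher went from 0 to 1 with RLE or a fold of 1.5, and the number lower from 1 to 0 with RLE or scran factors, to 4 per ERCC UMI and to 2 with a fold of 1.5. Between T and B cells the number lower went from 0 to 2 without the filter on low counts. With copies of 95% identity added Hmgb1 was no longer past the fold downwards in the granulocytes (log2 ratio -0.49) or the T cells (-0.33). In the T cells Hmgb1 was within 2-fold with RLE or scran factors as well. With scran factors Hmgn2 in the erythroblasts, at 1.01, was past the fold upwards.

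Leaving out the well with the most UMIs of a gene, also chosen after seeing the data, kept 24 of 25 levels within their interval, the exception being Hmgb3 in the T cells, which rests on 1 UMI. Within its wide interval Hmgn2 in the B cells fell from 44.2 to 22.9 CPM, since 1 well held 3 of its 6 UMIs. The same step moved the FSC-A ratio of Hmgb2 in the B cells to 3.53. Depth limits the lymphocytes most, where 0 UMIs, taken as a limit of 3 counts, allow up to 22.1 CPM (B) and 15.0 CPM (T).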
